A study of Mus musculus with 2 samples.

Results

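The transcript loci described here lie outside the gene annotation. They were built from every transcript model that the deposited tables class as intergenic, spike-ins left out, in either of 2 long-read RNA-seq libraries. There were 1857 such models in replicate 1 and 2503 in replicate 2, together 4360 of 240325 mouse models with counts. Models that shared at least 1 base of their span on the same strand were merged over both libraries, which gave 3761 loci with 8728 counts, where a count is 1 read assigned to a model. The study holds 1 group, male B6CASTF1/J mice, which are first-generation hybrids of the C57BL/6J and CAST/EiJ strains, aged 4 days, with no treatment named. Total RNA of the gastrocnemius, the large muscle of the calf, was sequenced, with 2 µg of RNA a library. The labels give each library its own biosample and biological replicate number but name the same donor for both. Whether the replicates are different mice is therefore unknown, and the spread between them may be technical. There is no second condition, so the comparisons below set the loci against other transcripts and replicate 1 against replicate 2.

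Long reads cover a whole RNA or a large part of it, so that a transcript can be placed in the genome, given a strand and seen to be spliced without a gene model. A read that falls in no annotated gene on either strand is called intergenic, and a read opposite to a gene is called antisense. Transcripts outside annotated genes are known from most mammalian tissues. They include RNAs that start beside a gene's promoter and run away from it, tails of genes that extend past the annotated end and unannotated genes, often of long noncoding RNAs. GENCODE M21, the annotation used for the deposited models, and RefSeq are separate catalogues, and a place can be a gene in one and empty in the other.

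Some loci have their 5′ end in a promoter window that RefSeq lists on the same strand. RefSeq GRCm38.p6 promoter windows cover 250 bases before and 50 bases from a gene's start. Such a window held the 5′ end of 61 loci, 39 of them spliced, 16 of them in both libraries and with 156 counts in all. At 24 of the 61 the 5′ end is the outermost base of an M21 gene on the other strand, and such an end is not read here as the start of an RNA. Over all 61 loci, with those 24 included, the median 5′ end lay at -33 bases from the RefSeq start, that is, upstream of it. The sequences of 7 windows are shown because they hold the 5′ ends of loci seen in both libraries. The 4 that come first belong to the loci with most counts among those whose 5′ end is the outermost base of a protein-coding gene on the other strand, and the other 3 to the spliced loci with most counts that do not touch a gene. Capitals mark the CCAAT box (CCAAT), the GC box (GGGCGG) and the TATA box (TATAAA), each searched on both strands, where matches of the GC box may overlap each other.
2310047K21Rik: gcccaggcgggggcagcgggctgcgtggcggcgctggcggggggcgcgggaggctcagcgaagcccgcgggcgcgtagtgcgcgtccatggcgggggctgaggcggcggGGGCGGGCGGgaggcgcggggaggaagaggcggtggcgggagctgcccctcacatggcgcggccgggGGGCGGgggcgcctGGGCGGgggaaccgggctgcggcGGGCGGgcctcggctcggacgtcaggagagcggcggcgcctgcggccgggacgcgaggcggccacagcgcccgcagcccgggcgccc
Cahm: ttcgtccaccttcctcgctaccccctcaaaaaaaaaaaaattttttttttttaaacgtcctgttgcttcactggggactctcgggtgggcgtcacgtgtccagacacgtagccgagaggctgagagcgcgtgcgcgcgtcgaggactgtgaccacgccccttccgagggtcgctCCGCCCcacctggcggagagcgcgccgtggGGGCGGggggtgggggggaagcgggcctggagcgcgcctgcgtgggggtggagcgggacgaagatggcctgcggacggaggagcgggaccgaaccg
Ggnbp2os: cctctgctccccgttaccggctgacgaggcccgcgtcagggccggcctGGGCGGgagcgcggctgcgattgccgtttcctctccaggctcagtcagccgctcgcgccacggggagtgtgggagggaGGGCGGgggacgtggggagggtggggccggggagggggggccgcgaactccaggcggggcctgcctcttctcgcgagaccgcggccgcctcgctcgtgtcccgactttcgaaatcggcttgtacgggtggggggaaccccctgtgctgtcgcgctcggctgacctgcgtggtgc
Gm33317: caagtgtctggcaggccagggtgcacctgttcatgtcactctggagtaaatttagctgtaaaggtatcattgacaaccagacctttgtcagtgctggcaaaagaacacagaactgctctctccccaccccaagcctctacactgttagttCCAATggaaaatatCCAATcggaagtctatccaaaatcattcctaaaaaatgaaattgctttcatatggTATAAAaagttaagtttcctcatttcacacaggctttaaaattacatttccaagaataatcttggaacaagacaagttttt
Gm34521: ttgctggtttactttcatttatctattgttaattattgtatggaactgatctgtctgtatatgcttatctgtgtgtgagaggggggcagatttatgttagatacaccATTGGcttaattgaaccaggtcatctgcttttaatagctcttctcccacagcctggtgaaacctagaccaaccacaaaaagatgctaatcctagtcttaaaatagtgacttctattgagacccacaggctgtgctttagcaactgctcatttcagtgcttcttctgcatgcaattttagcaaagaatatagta
Gm38396: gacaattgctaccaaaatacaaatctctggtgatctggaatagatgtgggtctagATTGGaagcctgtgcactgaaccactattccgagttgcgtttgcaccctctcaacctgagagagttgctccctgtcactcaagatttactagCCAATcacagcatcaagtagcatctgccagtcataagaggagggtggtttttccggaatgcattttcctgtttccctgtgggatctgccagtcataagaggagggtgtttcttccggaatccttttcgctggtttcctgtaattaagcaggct
Zfp33b: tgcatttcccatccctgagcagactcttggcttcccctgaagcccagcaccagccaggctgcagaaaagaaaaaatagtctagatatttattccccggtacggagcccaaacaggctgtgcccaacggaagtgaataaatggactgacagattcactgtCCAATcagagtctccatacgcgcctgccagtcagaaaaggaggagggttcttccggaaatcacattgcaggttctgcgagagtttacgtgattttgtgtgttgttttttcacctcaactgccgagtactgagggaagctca

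The window of 2310047K21Rik, a RefSeq long noncoding RNA gene at chr2:104816672-104816971 on the plus strand, has 5 GC boxes and 49 CpG dinucleotides in 300 bases. The locus whose 5′ end lies in it, chr2:104816760-104818678 on the plus strand, had 6 counts in replicate 1 and 18 in replicate 2. Its 5′ end is the outermost base of Qser1, which runs the other way. The window of Cahm, at chr17:10319669-10319968 on the plus strand, faces Qk, which encodes the RNA-binding protein quaking and had 366 counts in replicate 1 and 360 in replicate 2. The locus at Cahm, chr17:10319854-10321141, had 6 counts in replicate 1 and 5 in replicate 2, and it ended within 1 base of the RefSeq end of Cahm. The window of Ggnbp2os, at chr11:84870673-84870972 on the plus strand, faces Ggnbp2, and its locus had 3 counts in replicate 1 and 1 in replicate 2. The window of Gm33317, at chr13:83503852-83504151 on the minus strand, differs in kind. It has 1 CpG, 1 TATA box and 2 CCAAT boxes, and its locus runs away from Mef2c, a transcription factor gene of muscle. The locus had up to 8 exons but only 1 count in replicate 1 and 2 in replicate 2. Only 1 count in each replicate had its 5′ end in the window, on models of 8 exons in replicate 1 and 5 in replicate 2. The other count of replicate 2 was on an unspliced model inside the span, chr13:83304547-83306334.

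The 3 windows that touch no gene were Gm34521 at chrX:109445188-109445487, Gm38396 at chr17:17179055-17179354 and Zfp33b at chr5:104571422-104571721, all on the plus strand and all listed as protein-coding by RefSeq. Their loci had 1, 1 and 2 counts in replicate 1, and 7, 4 and 2 counts in replicate 2. The locus at Gm34521, chrX:109445388-109578552, had 5 exons in both replicates, and its 5′ ends were 1 base apart. Same-strand models of other classes over its exonic bases had 9 counts in replicate 1 and 2 in replicate 2. Over all 61 windows, those of loci that share their boundary base with a gene and those of the other loci were unlike. A GC box was found in 20 of 24 windows (83.3%, exact 95% interval 62.6% to 95.3%) of loci at a gene boundary and in 4 of 37 (10.8%, 3.03% to 25.4%) of the others, beside 11714 of all 32851 RefSeq windows (35.7%). The median number of CpG dinucleotides was 33 in windows at a gene boundary and 5 in the others, against 7 over all windows. A CCAAT box was found in 9 of 24 windows at a gene boundary (37.5%) and in 21 of 37 of the others (56.8%), against 37.4% of all windows. The TATA box was found in 6 of 61 windows (9.84%), against 13.6% of all. These matches describe letters, not bound sites, and the table holds no window from chromosome 18.

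The loci carried a small part of the libraries. Intergenic models held 3808 counts in replicate 1, which is 0.366% (exact 95% interval 0.355% to 0.378%) of 1039740 mouse counts. They held 4920 counts in replicate 2, which is 0.453% (0.441% to 0.466%) of 1085083. The mean was 0.41% ± 0.062 (SD, n = 2), and the intervals of the replicates, which cover counting error only, did not overlap. Antisense models held 3.43% in replicate 1 and 4.74% in replicate 2, so replicate 2 had the higher share of both kinds. Markers of other cell types differed between the libraries as well. The 6 epidermis marker genes, keratins and loricrin, summed to 4 counts in replicate 1, where 1 of them had any count, and to 940 counts in replicate 2, where all 6 had. Schwann cell markers summed to 1449 CPM (counts scaled to the annotated-gene total of the library) in replicate 1 and 3479 CPM in replicate 2, and fibroblast markers to 36943 CPM in replicate 1 and 25011 CPM in replicate 2. In bulk tissue, fewer cells of a type and less RNA per cell cannot be told apart. Markers of skeletal muscle agreed closely, with 146290 CPM in replicate 1 and 146345 CPM in replicate 2, and all 6 were present in both, as the tissue label has it. The part of these cells in the intergenic share was not tested.

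Most loci had few counts. Of the 3761 loci, 2781 (73.9%) had 1 count in both libraries together, 211 had at least 5, 71 had at least 10 and 5 had at least 100. The 12 loci with most counts held 26.1% of all intergenic counts, and the 3 with most counts held 17.8%. All 12 were unspliced.

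The locus with most counts was chr12:109581013-109584432 on the minus strand, with 371 counts in replicate 1 and 426 in replicate 2, or 393 ± 31 CPM (SD, n = 2). Its models ended on the same base, and the model of replicate 1 was 3420 bases long and that of replicate 2 135 bases long. The nearest M21 gene is the microRNA gene Mir493 on the other strand, 698 bases away, which had 1 count in replicate 1 and 2 in replicate 2. RefSeq, however, places the locus inside Rtl1, a paternally expressed imprinted gene derived from a retrotransposon, which lies opposite to maternally expressed microRNAs. The RefSeq gene covers chr12:109564900-109604418, 39519 bases, and the M21 gene chr12:109589193-109600330, 11138 bases. Another of the highest 12 loci lies in the same RefSeq gene, chr12:109600820-109602914, at 490 bases beyond the M21 start of Rtl1. It had 0 counts in replicate 1 and 244 in replicate 2, at least 79.1-fold lower in replicate 1 with zeros set to a floor of 3 counts per library (adjusted p = 1.05e-69, two-sided Fisher exact test described below). Replicate 1 had 203 counts over the same place on a model, 3374 bases long, that reached into the M21 gene and was counted for Rtl1. The locus and Rtl1 together had 251 counts in replicate 1 and 280 in replicate 2. In both replicates the annotated full-length Rtl1 model had few counts, 6 in replicate 1 and 5 in replicate 2.

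**Figure D1:**
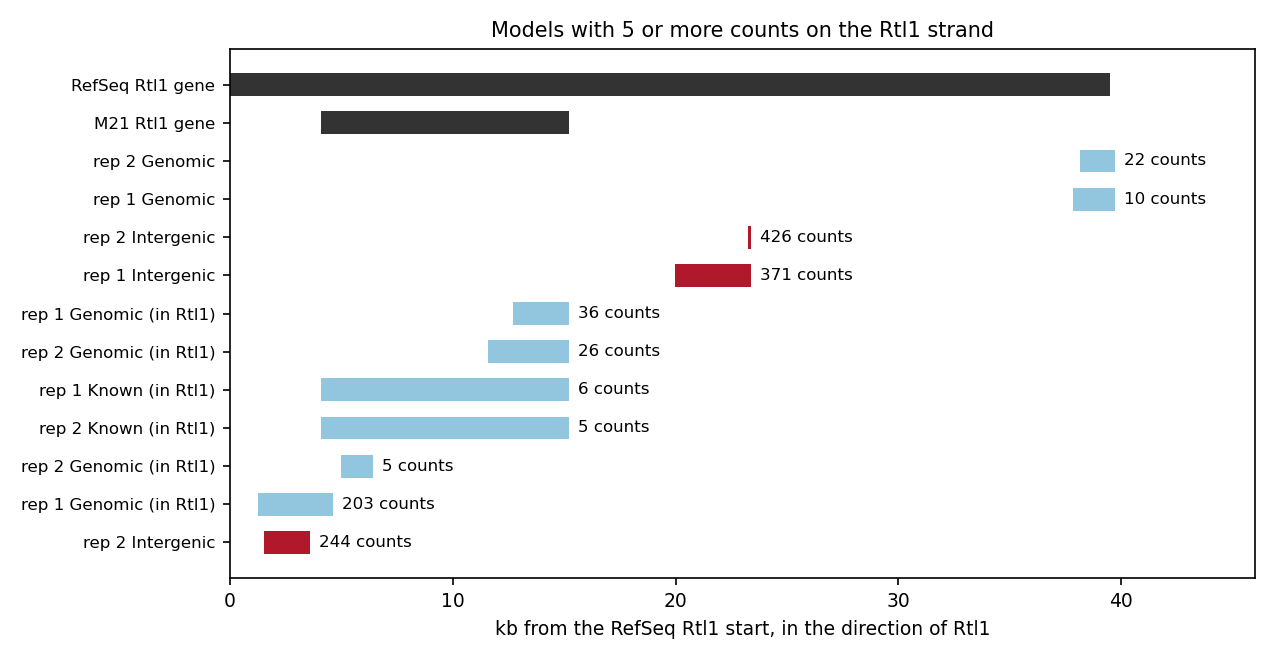
Transcript models with at least 5 counts on the strand of Rtl1, drawn by distance in kb from the RefSeq start. Dark bars are the gene in RefSeq and in M21, red bars intergenic models and blue bars models of other classes, with the replicate and its counts. The 371 and 426 counts end on the same base, and the 244 intergenic counts of replicate 2 lie over 203 counts that replicate 1 has in Rtl1.

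The next locus, chr7:28187294-28189072 on the minus strand, had 257 counts in replicate 1 and 254 in replicate 2. It is opposite to Dyrk1b, a protein kinase gene, and its 3′ end is the outermost base of Dyrk1b in M21, at that gene's end. In RefSeq, Dyrk1b reaches farther, over chr7:28179447-28197910, so that the whole locus lies opposite to the RefSeq gene. Dyrk1b itself had 122 counts in replicate 1 and 106 in replicate 2, fewer than its neighbour. A like arrangement, on the other strand and past the M21 end of a gene, was seen for the locus at chr19:41589572-41592396, past the M21 end of Mir8091 and opposite to the RefSeq span of Lcor, a nuclear receptor corepressor gene. It had 42 counts in replicate 1 and 47 in replicate 2. The arrangement was also seen for chr2:180719390-180722239 near Gid8, a subunit gene of a ubiquitin ligase complex, with 34 counts in replicate 1 and 41 in replicate 2, and most of that locus lies opposite to the RefSeq span of Gid8. None of these 3 loci differed between the replicates past the threshold of the test given below.

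Some of the highest loci had no RefSeq gene over 50% or more of their span, on either strand. The locus chrX:64498568-64498888 on the plus strand, 1911 bases past the small nucleolar RNA gene Gm24598, had 49 counts in replicate 1 and 57 in replicate 2. The locus chr15:103619061-103619240 on the plus strand, 30552 bases from its nearest gene Gm49272, had 21 counts in replicate 1 and 32 in replicate 2. The longest unspliced locus with at least 10 counts that was in both libraries, chr2:157545469-157555583 on the plus strand, spans 10115 bases beside Gm14286 and had 25 counts in replicate 1 and 43 in replicate 2. The locus chr15:86212657-86214459, opposite to Tbc1d22a, a gene for a GTPase-activating protein, and sharing its boundary base, had 14 counts in replicate 1 and 25 in replicate 2. All of them had models in both libraries.

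**Figure D2:**
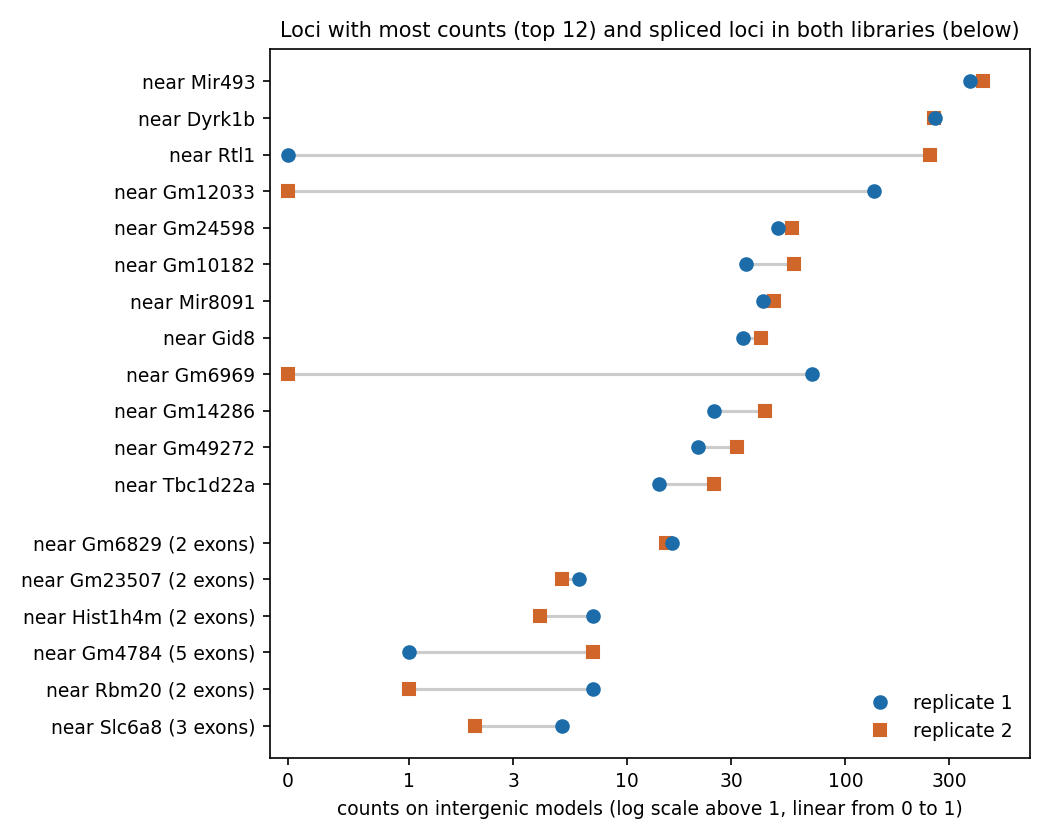
Counts on intergenic models in replicate 1 (circles) and replicate 2 (squares) for the 12 loci with most counts and, below the gap, the 6 spliced loci with most counts among those in both libraries, named by the nearest M21 gene. The axis is logarithmic above 1 count. Most pairs lie close together, and 3 loci have 0 counts in 1 replicate.

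Most loci lay near genes. The median distance to the nearest M21 gene on either strand was 3081 bases, and 2261 of 3757 loci with a gene on their sequence (60.2%, exact 95% interval 58.6% to 61.8%) lay within 5000 bases of one. The nearest gene was protein-coding for 62.6% of the loci, while 39.7% of all M21 genes are protein-coding. It had at least 10 counts for 58.3% of the loci within 5000 bases and for 33.6% of those farther away, against 19.9% of all M21 genes. Among genes at equal distance, a protein-coding gene was taken first. The same shares were not computed for other intergenic positions, so whether the loci differ from such positions was not tested. Close up, the distances had a gap. No locus shared more than 1 base with its nearest gene, 628 (16.7%) shared exactly 1 base, which is the outermost base of the gene, and only 2 other loci lay within 100 bases of it and 5 beyond 100 and within 300. There were 90 beyond 300 and within 500 bases, and 361 beyond 500 and within 1000. Within a library, 6 pairs of neighbouring intergenic models in replicate 1 and 12 in replicate 2 overlapped, and all 18 pairs shared exactly 1 base. What sets the ends at these bases was not tested. An end on such a base was not read here as the start or end of an RNA.

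Spliced loci differed from unspliced ones in their position, described here without a test. Of 464 spliced loci, 191 (41.2%, 36.6% to 45.8%) lay within 5000 bases of a gene, against 2070 of 3293 unspliced loci (62.9%, 61.2% to 64.5%), and the median distance was 7240 bases for spliced and 2804 bases for unspliced loci. Within 5000 bases, the largest class of the spliced loci was on the other strand beyond the start of the gene, the arrangement of a divergent promoter, with 81 of 191 loci (42.4%, 35.3% to 49.8%), against 486 of 2070 unspliced loci (23.5%, 21.7% to 25.4%). Of these 81 loci, 59 shared the boundary base of the gene and 22 were in both libraries. That base was shared by 7 of 45 spliced loci on the other strand past the end. On the same strand it was shared by 2 of 39 spliced loci beyond the start and 6 of 26 past the end. With loci on a boundary base left out, the other strand beyond the start was no longer the largest class of the spliced loci. Unspliced loci had no clear largest class. On the same strand past the gene's end were 601 of 2070 (29.0%, 27.1% to 31.0%), against 26 of 191 spliced loci (13.6%, 9.09% to 19.3%). On the other strand past the end were 577 unspliced loci (27.9%, 26.0% to 29.9%). The order of these classes turned with protein-coding genes only, with 449 unspliced loci on the same strand and 458 on the other. It also turned within 10000 bases, with 709 on the same strand and 710 on the other. The genes opposite to divergent spliced loci had at least 10 counts in 56 of 81 cases (69.1%), and the genes with a spliced locus past their end on the same strand had so in 6 of 26 (23.1%).

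**Figure D3:**
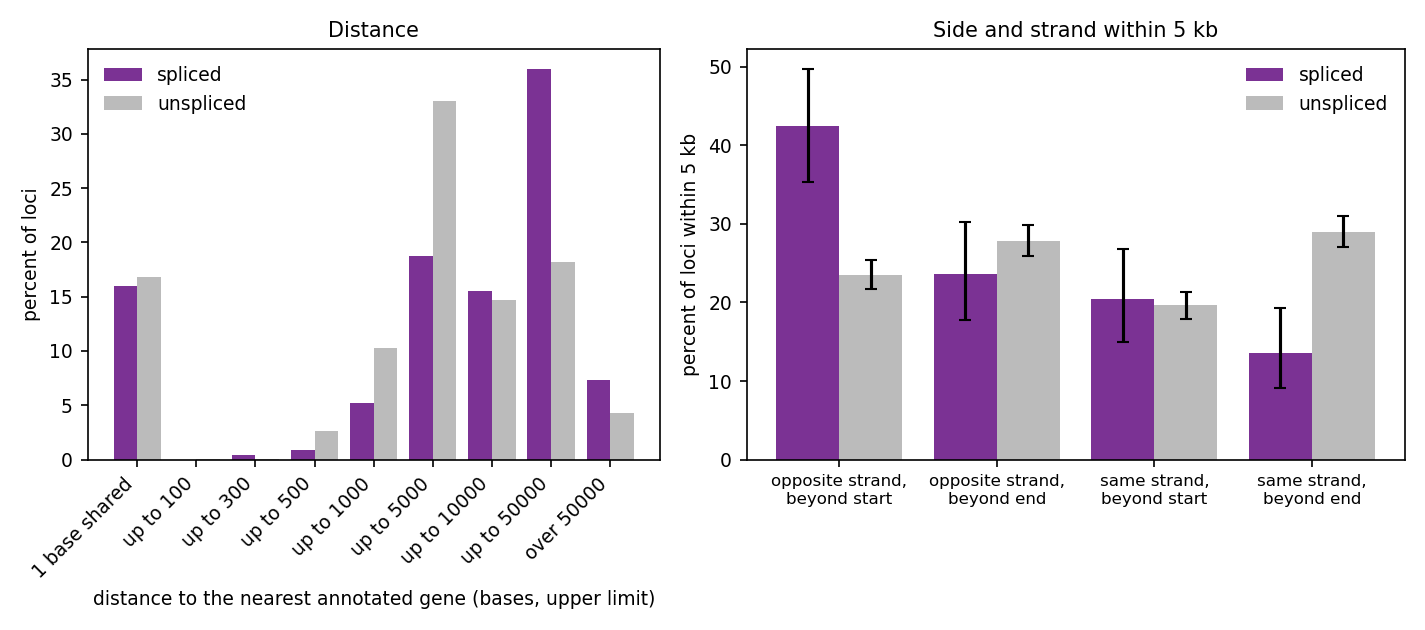
Left, percent of 464 spliced and 3293 unspliced loci by distance in bases to the nearest M21 gene, each class running from the limit of the class before. Right, percent of the 191 spliced and 2070 unspliced loci within 5 kb by strand and side of that gene, with exact 95% intervals. Only 7 loci that share no base lie within 300 bases. Spliced loci are most often on the other strand beyond the start when those that share the boundary base of the gene are included.

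Splicing was found at 465 loci (12.4%, 11.3% to 13.5%), on 232 models in replicate 1 and 288 in replicate 2, with 692 of the 8728 counts. Most spliced models were short chains. Of 520, 311 (59.8%) had 2 exons, 40 (7.69%) had 5 or more, and the longest had 9. The median intron was 1844 bases long, and 11 of 853 introns were under 50 bases. Exact intron chains rarely recurred, with 23 of 497 in both libraries (4.63%, 2.96% to 6.86%), and 54 of 853 introns were in both.

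The spliced locus with most counts in both libraries was chrX:9328977-9332624 on the minus strand, 869 bases beyond the start of the pseudogene Gm6829, with 16 counts in replicate 1 and 15 in replicate 2. Its models had 2 exons, 1125 bases and the same ends in both replicates. A locus of 2 exons at chr13:21813005-21820121, past the histone H4 gene Hist1h4m, had 7 counts in replicate 1 and 4 in replicate 2, and another at chr11:88890179-88896414, near the small nuclear RNA gene Gm23507, had 6 counts in replicate 1 and 5 in replicate 2. A pair of the 6 loci lie head to head with genes known in muscle. The locus chr19:53672615-53677306 shares the start base of Rbm20, a splicing regulator of titin. It had 7 counts in replicate 1, all unspliced, and 1 in replicate 2. Same-strand models of other classes over its exonic bases had 1 count in replicate 1 and 6 in replicate 2. The locus chrX:73670410-73673150 shares the start base of Slc6a8, the creatine transporter gene, and had 5 counts in replicate 1 and 2 in replicate 2, on models of 3 exons that ended within 1 base of each other. RefSeq lists the noncoding genes Gm46653 and Gm32261 over these places, without a strand in the table used. The locus at Gm34521, printed above, completes this set.

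Among models with at least 2 counts, the most exons were found at chr12:70366750-70388958 near Gm32151, with 8 exons and 2 counts in replicate 2 only. The locus chr17:17005117-17041386 follows RefSeq Gm51425, a protein-coding entry, from 1 base after its start with 4 exons, and had 0 counts in replicate 1 and 5 in replicate 2. It lies near the zinc finger gene Zfp960. Same-strand models of other classes over the exonic bases of this locus had 3 counts in replicate 1 and 1 in replicate 2. Counts this low place the structures but do not measure a level.

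RefSeq covered a part of the loci. For 469 of 3761 (12.5%, 11.4% to 13.6%), at least 50% of the span lay in a RefSeq gene on the same strand, for 336 in a gene on the other strand only, for 153 in a gene whose strand the tables used do not give, and for 2803 (74.5%) in none. Spliced loci were covered on the same strand in 21.7% of cases (18.1% to 25.7%) and unspliced loci in 11.2% (10.1% to 12.3%). Of the 71 loci with at least 10 counts, 23 were covered (32.4%, 21.8% to 44.5%). Genes were matched to M21 by symbol or synonym, so a gene that M21 holds under another symbol was taken as not named. Of the 469, 271 lay in genes that M21 also names, in which RefSeq reaches farther, and the others in genes M21 does not name. An example is chr9:67630891-67634047 on the minus strand, the locus with at least 10 counts farthest from any M21 gene, at 66134 bases. It lies at the RefSeq start of Tln2, the gene of talin 2, which links integrins to the cytoskeleton at the muscle membrane. It had 7 counts in replicate 1 and 4 in replicate 2, and 25 counts in replicate 1 and 18 in replicate 2 stood on models of other classes over the same exonic bases. The locus chr1:168623237-168624742, at 50530 bases from 1700063I16Rik, had no RefSeq gene and 3 counts in replicate 1 and 7 in replicate 2.

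The 3′ ends of a locus lay closer together in the replicates than its 5′ ends. Among 471 unspliced loci with 1 model in each library, the 3′ ends lay within 10 bases of each other in 407 (86.4%, 83.0% to 89.4%) and on the same base in 273. The 5′ ends lay within 10 bases in 196 (41.6%, 37.1% to 46.2%) and over 1000 bases apart in 112. Without the loci whose end sits on a gene boundary the shares were 86.0% for 3′ ends and 36.5% for 5′ ends. Both ends were identical in 59 loci. Model lengths differed accordingly, as at Mir493.

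**Figure D4:**
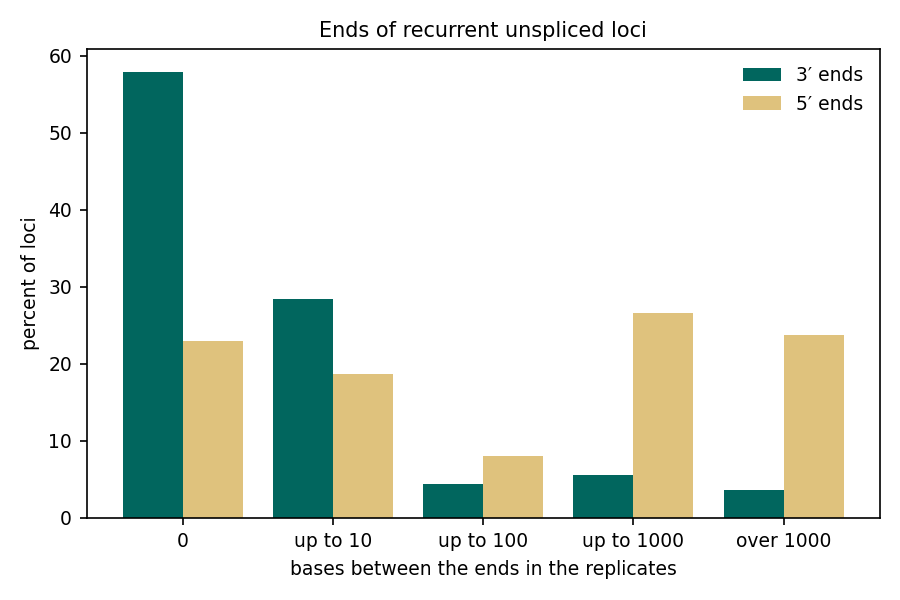
Percent of 471 unspliced loci with 1 model in each library, by the number of bases between the 3′ ends (green) and the 5′ ends (sand) of the replicates' models. Most 3′ ends differ by at most 10 bases, while 5′ ends spread from 0 to over 1000.

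Recurrence grew with counts up to a point. Of all loci, 574 (15.3%, 14.1% to 16.5%) had intergenic models in both libraries. Another 1276 were seen in replicate 1 alone and 1911 in replicate 2 alone. A locus with 1 count cannot recur, so recurrence was read at matched counts. With 2 counts, 43.9% of intergenic loci (39.5% to 48.4%) were in both libraries, against 47.1% of antisense loci and 43.4% of annotated genes. With 5 to 9 counts the values were 80.0% (72.4% to 86.3%), 92.6% and 91.8%. With 10 to 19 counts they were 77.1% (62.7% to 88.0%), 98.7% and 98.7%, and annotated lincRNA genes stood at 37 of 37. These measures differ, since annotated genes were counted over all classes of model. Intergenic and antisense loci were both counted over models of their own class only. What sets intergenic loci below antisense loci from 5 counts on was not tested. Of the 17 intergenic loci with at least 10 counts in 1 library only, 12 had a same-strand model of another class in the other library. Among intergenic loci with 2 counts, 50 of 63 spliced loci (79.4%, 67.3% to 88.5%) were in both libraries, against 167 of 431 unspliced loci (38.7%, 34.1% to 43.5%). A locus was called spliced if any of its models was spliced. Its span holds introns, in which a model of the other library can fall. Both points favour spliced loci in this comparison, which is therefore given as a description only. A spliced locus with 2 or more counts could also recur through different intron chains.

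**Figure D5:**
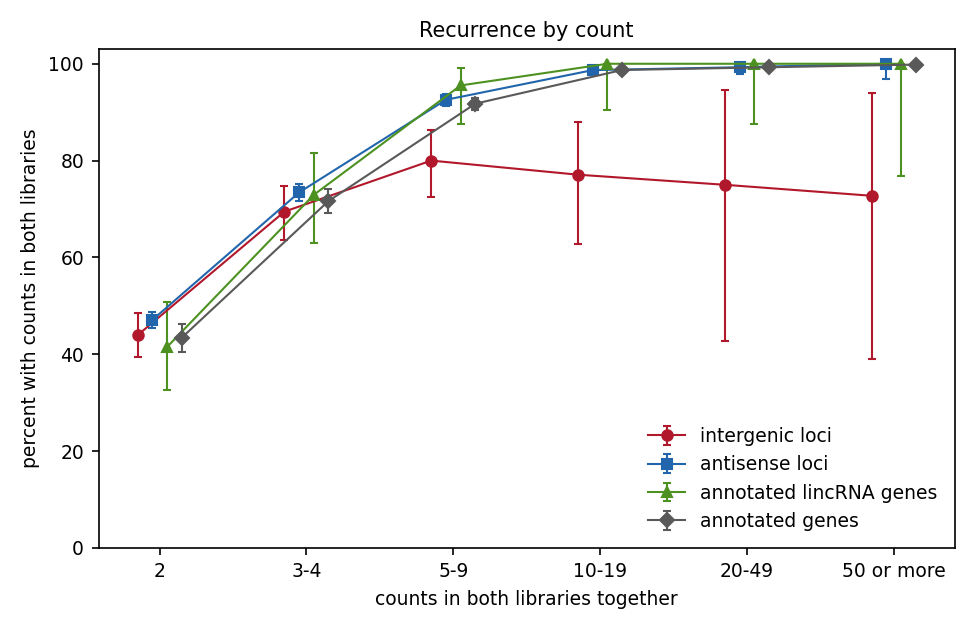
Percent of features with counts in both libraries by their summed count, for intergenic loci, antisense loci, annotated lincRNA genes and all annotated genes, with exact 95% intervals. Intergenic loci follow the other kinds up to 4 counts and then stay at 80.0% or below, while the others reach 98.7% or more from 10 counts. Annotated genes are counted over all classes of model, and intergenic and antisense loci alike over models of their own class only.

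The libraries were then compared feature by feature. Each of 12478 features with at least 10 counts in sum, 71 of them intergenic loci, was compared between the libraries with a two-sided Fisher exact test against the annotated-gene counts of the library, 998659 in replicate 1 and 1026257 in replicate 2, adjusted over all features (Benjamini-Hochberg, threshold 0.05). Over all features 1199 (9.61%) differed, and over annotated genes 1073 of 11027 (9.73%). Of the 71 intergenic loci, 17 (23.9%) differed, 9 higher and 8 lower in replicate 1. The other 3690 loci had too few counts to enter. The test compares 2 libraries and covers counting error only. The 17 loci were those with 0 counts in a replicate, and none of the 54 loci with counts in both was called. The minimum sets this in part. A locus with 0 counts in a replicate entered the test only with at least 10 counts in the other, and even 10 against 0 passed the threshold, with a largest adjusted p of 0.026 in this Fisher exact test. The count of 17 and its share are therefore given as a description. Without the minimum, 13 of the 17 loci passed, and no other locus.

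Of the 17 loci, 12 had models of another class on the same strand and the same exonic bases in the replicate where the locus was empty, as at Rtl1. At chr17:34996730-35000354, near Vars, the valyl-tRNA synthetase gene, and inside RefSeq D17H6S56E-5, intergenic models had 0 counts in replicate 1 and 32 in replicate 2 (adjusted p = 3.97e-08, at least 10.4-fold lower in replicate 1 with the floor of 3 counts per library), and models of other classes, mostly antisense, had 50 in replicate 1 and 11 in replicate 2. At chr5:136199510-136201467, near Prkrip1, intergenic models had 0 counts in replicate 1 and 26 in replicate 2 (adjusted p = 1.84e-06), and other models 11 in replicate 1 and 1 in replicate 2. A locus near Nipbl, the cohesin loader gene, had 15 intergenic counts in replicate 1 and 0 in replicate 2, with 0 antisense counts in replicate 1 and 17 in replicate 2. A locus past Slc25a4, the ADP/ATP carrier gene of muscle mitochondria, had 15 intergenic counts in replicate 1 and 0 in replicate 2, with 0 antisense counts in replicate 1 and 7 in replicate 2. A locus near Hexim2, with 0 counts in replicate 1 and 13 in replicate 2, was itself built of 3 models that join at shared single bases. The other 6, near Dyrk1b, Gpc4, Ppdpf, Plekho1, Farp1 and Exoc6, had 10 to 12 intergenic counts in a replicate and 0 in the other. When models of any class on the same strand were counted for a locus, 5 of the 17 were still called. These 5 had 0 counts on models of other classes over their exonic bases in both replicates. Their counts were therefore unchanged, and this step could not test them. Counts of the gene beside each of the 5 did not enter.

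Those 5 were the loci at processed pseudogenes, the copies that messenger RNAs leave in the genome by reverse transcription. All 5 lie on the same strand past the annotated end of the pseudogene, and 4 share its last base. The locus chr11:20334835-20335012 at Gm12033 had 135 counts in replicate 1 and 0 in replicate 2 (adjusted p = 1.86e-39, at least 46.2-fold higher in replicate 1), while Gm12033 itself had 701 in replicate 1 and 702 in replicate 2. At Gm6969 the locus chr12:24638003-24638669 had 70 counts in replicate 1 and 0 in replicate 2 (adjusted p = 7.48e-20), and the pseudogene 10 in replicate 1 and 97 in replicate 2. Locus and pseudogene together had 80 in replicate 1 and 97 in replicate 2. At Gm15387 the locus chr15:74093182-74093686 had 29 counts in replicate 1 and 0 in replicate 2 (adjusted p = 9.24e-08), and together with the pseudogene 39 in replicate 1 and 47 in replicate 2. At Gm11223 the locus had 11 counts in replicate 1 and 0 in replicate 2, and the pseudogene 17 in replicate 1 and 33 in replicate 2. At Gm1943 the locus had 0 counts in replicate 1 and 10 in replicate 2, and the pseudogene 8 in replicate 1 and 1 in replicate 2. Reads of near-identical copies can be assigned to more than 1 place, so counts at pseudogenes are uncertain. The RefSeq spans of Gm12033, Gm6969 and Gm15387 contain the loci. The same was found at Gm10182, where the pseudogene had 0 counts in replicate 1 and 1 in replicate 2 and the locus chr9:22320306-22321105 had 35 counts in replicate 1 and 58 in replicate 2, on models of 800 bases with the same ends. Over all loci, 55 of 205 (26.8%, 20.9% to 33.4%) that share the last base of a gene on the same strand did so with a pseudogene, which is close to the 24.4% of M21 genes that are pseudogenes. RefSeq covered 36 of these 55 on the same strand.

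Loci whose nearest gene belongs to a list of muscle, limb or other genes had few counts each. These gene lists were chosen with earlier results of these data known, and their shares are set beside those of all genes without a test. Of the 11027 M21 genes with at least 10 counts, 13.7% were the nearest gene of a locus, and there were 16.5 loci per 100 of these genes. Of 55 genes of contraction and calcium handling, 14 were the nearest gene of a locus, or 25.5%, with 34.5 loci per 100 genes. All 55 had at least 10 counts. The 19 loci had 9 counts in replicate 1 and 38 in replicate 2, and 17 of them lay within 5000 bases of the gene. The highest, chr13:12266365-12268658, lies 768 bases past the end of Actn2, the alpha-actinin 2 gene of the Z-disc, on its strand, and had 2 counts in replicate 1 and 7 in replicate 2. Past the end of Srl, the sarcalumenin gene, a locus at chr16:4476978-4478340 had 0 counts in replicate 1 and 8 in replicate 2, and models of other classes over the same bases had 2149 in replicate 1 and 1584 in replicate 2. Next to it, the locus chr16:4474193-4476497 had 0 counts in replicate 1 and 5 in replicate 2, and models of other classes over it had 2116 in replicate 1 and 0 in replicate 2. The Srl model with most counts, 1879 in replicate 1 and 1558 in replicate 2, ended at base 4476262 in replicate 1, inside that locus, and at base 4476497, its boundary, in replicate 2. Of 26 myogenic regulators, 7 were the nearest gene of a locus (26.9%), with 69.2 loci per 100 genes. The 24 of them with at least 10 counts had all 18 loci, or 75 per 100 genes, beside the 16.5 given above. Several of the 18 have Mef2c as nearest gene, and all of those but the locus at its start lie 59394 to 124974 bases from it. Within 5000 bases there were 29.2 loci per 100 of the 24 genes, against 12 per 100 of the 11027 genes. These 18 loci had 17 counts in replicate 1 and 20 in replicate 2, and 7 of them lay within 5000 bases of the gene. A locus among them runs away from Myod1, the myogenic determination gene, at chr7:46371669-46376474 on the minus strand, and had 6 intergenic counts in replicate 1 and 0 in replicate 2, with 1 count in replicate 1 and 8 in replicate 2 on models of other classes. Another, at chr10:107498051-107506173 beyond the start of Myf6, had 3 counts in replicate 1 and 4 in replicate 2. The 33 matrix and tendon genes, all with at least 10 counts, had 7 loci, 21.2 per 100 genes, with 5 counts in replicate 1 and 8 in replicate 2. The 24 hindlimb and Hox genes had 5 loci, 20.8 per 100 genes, with 3 counts in replicate 1 and 6 in replicate 2. Only 10 of these 24 genes had at least 10 counts, and those 10 had 1 locus, or 10 per 100 genes, below the 16.5 given above. The 35 epidermal and hair genes had 1 locus, near Ivl, with 0 counts in replicate 1 and 1 in replicate 2. Imprinted genes had 9 loci with 8 counts in replicate 1 and 251 in replicate 2. The locus at Rtl1 held 0 of these counts in replicate 1 and 244 in replicate 2. The counts that replicate 1 has there on a model of Rtl1 are given above. None of these lists had a locus with at least 10 counts other than that at Rtl1.

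Across chromosomes, loci were spread with the expressed genes, at 15.0 to 28.9 loci per 100 annotated genes with counts on the autosomes and the X chromosome. The Y chromosome stood apart, with 17 loci, 15 counts in replicate 1 and 24 in replicate 2, beside 7 annotated genes with counts.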

How the data were processed

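Long-read RNA-seq of 2 libraries was used, with 1066347 counts in replicate 1 and 1100253 in replicate 2, spike-ins included. Per the file headers and the notes deposited beside them, reads were aligned to mm10 and assigned to transcript models with GENCODE M21 in the table format of TALON, and the deposited values are raw counts of reads per model. Which aligner, platform and versions were used is not given in the sources used here. Model coordinates came from the deposited annotation files, and gene spans from M21. Overlaps with other classes needed 50 shared exonic bases, or 50% of a shorter locus. Strands of RefSeq genes came from its promoter table or, by symbol, from M21.

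Counts were scaled by annotated-gene counts (CPM). Shares have exact Clopper-Pearson 95% intervals, which cover counting error only, since reads carry no molecular identifiers here. Zeros were set to a floor of 3 counts for folds. edgeR 4.0.16 and DESeq2 1.42.0 (R 4.3.3) gave other scalings only. Python 3.11.15 and scipy 1.17.1 ran the rest, and the test and merging were tested on simulated data.

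The loci and gene lists were chosen with earlier results of these data known. Named loci are the 12 with most CPM, the next 6 spliced ones in both libraries, those with most exons, the largest ratios among called loci, the longest, the farthest and the highest beside a listed gene. The loci at RefSeq promoters, the 17 called loci and those near Gm10182, Srl and Myod1 were named after their values were seen. No value column was left out.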

Additional observations from a re-analysis of the deposited data

Results flagged for a closer look

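Genes that the deposited tables class as intergenic also held models of other classes, which the loci above leave out. There were 88 such models with 122 counts in replicate 1 and 115 with 181 counts in replicate 2. Of the 203 models, 99 were of the genomic class, 67 were spliced models with an unannotated splice site, 12 new combinations of known splice sites and 25 incomplete splice matches.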

How the results depend on the processing

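The number of loci, 3761, fell to 753 with models of at least 2 counts and to 131 with at least 5. Each library alone gave 1851 to 2491 loci. The share in both libraries, 15.3%, was 4.60% with at least 2 counts required in each, 10.5% with 50% overlap of each library's loci, 21.3% with models of any class in the other library, 78.7% among loci with at least 5 counts and 76.1% with at least 10. The spliced share, 12.4%, was 2.15% with 2 counts on spliced models and 11.6% to 12.5% in each library alone. Intron chains in both, 4.63%, became 8.65% when 1 shared intron sufficed. The share near a gene, 60.2% within 5000 bases, was 28.9% within 1000 bases, 75.0% within 10000 bases, 47.9% for protein-coding genes only, 49.2% for genes with counts only, 80.0% for loci with at least 5 counts, 84.3% with at least 10, and 60.5% to 61.9% in each library alone. Loci on the same strand past the end, 27.7% of those within 5000 bases, were 25.8% with protein-coding genes only and 26.8% within 10000 bases. The count of loci that differ, 17, was 6 of 23 with at least 20 counts. It stayed at 17 with each of the other 3 scalings, was 13 of 3761 without a minimum count, and was 13 of 131 (9.92%) with models of any class, of which 5 were among the 17. Of the 39 alternatives, 17, some of them given above, moved a value by less than the spread between the libraries, its interval or 1.5 times. Genomic A runs and poly(A) signals after model ends were not run, since no genome of the build was used here. No paired analysis was possible because there is 1 group. Most loci had 1 count, at which neither recurrence nor a level can be read.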

Other observations

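Loci were nearly even between the strands of the genome, with 1837 on the plus and 1924 on the minus strand, while counts were not, with 3157 on the plus and 5571 on the minus strand. Without the 3 loci with most counts, all of them on the minus strand, the counts were 3157 on the plus and 4019 on the minus strand. Counting models of any class for a locus added 8 loci to those called between the libraries. They include both loci past Srl described above, with 2116 counts in replicate 1 and 5 in replicate 2 at the farther one and 2149 in replicate 1 and 1592 in replicate 2 at the nearer one. A locus near Actb, the cytoplasmic actin gene, had 3 counts in replicate 1 and 262 in replicate 2. The other 5 had 6 to 24 counts in replicate 1 and 0 to 33 in replicate 2. These were named after their values were seen.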
